A study of Mus musculus with 6 samples.

Results

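Open chromatin at the 5 genes of the Ikaros family, Ikzf1 (Ikaros), Ikzf2 (Helios), Ikzf3 (Aiolos), Ikzf4 (Eos) and Ikzf5 (Pegasus), was described in cultured mouse T helper cells. All ATAC-seq peaks lying in the body of a member gene, or within 50 kb of either end of it, were taken from 6 peak lists. Overlapping or adjoining peaks from the 6 lists were merged into single regions. Of the 236017 regions so formed, 95 lay in the 5 windows, and these held 399 peaks. With these libraries the study compared accessible chromatin between T helper subsets with different cytokine programmes. They formed a part of wider work on STAT5 and BATF at the Il9 locus, which also used other assays. The libraries were made by ATAC-seq, in which the transposase Tn5 inserts sequencing adapters into accessible DNA.

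Each subset had 2 libraries, labelled as wild-type replicates 1 and 3, from C57BL6/J mice. The labels give spleen as the tissue, and the study's methods describe naive CD4+CD62L+ T cells taken magnetically from spleens and lymph nodes and activated with antibodies to CD3 and CD28. Th2 cultures received IL-4, IL-2 and an antibody against IFN-γ. Th9 cultures received the same together with TGF-β1. Th17 cultures received IL-6, TGF-β1, IL-23 and IL-1β, with antibodies against IFN-γ, IL-4 and IL-2. IL-2 was thus added to Th9 and Th2 cultures and blocked in Th17 cultures, so the subsets differ in several agents at once. No sorting of the cultured cells was given for these libraries. The methods describe adult mice of both sexes for the study's experiments. Nothing in the sources says that replicates came from separate animals or cultures. The p-values here rest on a spread between libraries that may be technical and was in part estimated over all regions tested.

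Ikaros family proteins are zinc finger transcription factors that bind DNA through zinc fingers near one end and pair with each other through zinc fingers near the other. They recruit chromatin complexes such as NuRD and can silence or maintain genes of lymphocytes. Ikaros is needed for lymphocyte development and has been tied to Th2 and Th17 programmes, Helios and Eos are known from regulatory T cells, Aiolos from B cells and Th17 cells, and Pegasus is the most divergent and broadly expressed member.

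The lists held between 100317 and 142213 peaks, and the lowest fold enrichment called was 2.11 in Th9 replicate 1 against 1.71 to 1.83 in the other libraries. The lists hold no read counts, and depth was therefore unknown here. Of 5 T cell markers, 4 had a promoter peak in all 6 libraries, and Cd4 had one in 4. The B cell markers Ms4a1, Cd79a and Pax5 had one in 0 libraries. Lyz2, Itgam and Ncr1 had none, Klrb1c had one in 1 library, and the macrophage gene Adgre1 had one in the 4 Th9 and Th2 libraries at percentiles of 9.0 to 47.8. Of the subset cytokine genes, Il17f had a promoter peak in the Th17 libraries alone (percentiles 86.7 and 87.5), Il17a in the Th17 libraries (81.4 and 69.5) and in Th2 replicate 3 (36.1), Il13 in the Th2 libraries alone, and Il9 and Il4 in the Th9 and Th2 libraries. Il9 lay at 88.6 and 90.7 in Th9 and at 37.1 and 44.4 in Th2. A percentile gives the place of a peak among all peaks of its own list by fold enrichment, from 0 for the weakest to 100 for the strongest.

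Sequences are shown for regions that differed between the subsets. The first 3 are the regions inside Ikzf1, Ikzf3 and Ikzf4 whose fold enrichment differed most between subsets among those past the test described further on, the next is the single region called in Th9 alone, and the last 2 are the strongest of those called in Th9 and Th2 libraries but in neither Th17 library. Each is the 200 bases around the centre of the region's strongest peak, read from the plus strand of GRCm38.p6 (the assembly of mm10), with capitals marking matches to short words on either strand. The words were the Ikaros-type core TGGGAA, the GATA word AGATAA, the AP-1 word TGANTCA, the STAT word TTCNNNGAA, the ROR word AGGTCA and the RUNX word TGTGGT.
Ikzf1 intron, chr11:11726080-11726279: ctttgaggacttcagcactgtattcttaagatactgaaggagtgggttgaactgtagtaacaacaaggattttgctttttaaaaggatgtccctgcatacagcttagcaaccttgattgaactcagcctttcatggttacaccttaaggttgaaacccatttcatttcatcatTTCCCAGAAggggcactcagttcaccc
Ikzf3, chr11:98487722-98487921: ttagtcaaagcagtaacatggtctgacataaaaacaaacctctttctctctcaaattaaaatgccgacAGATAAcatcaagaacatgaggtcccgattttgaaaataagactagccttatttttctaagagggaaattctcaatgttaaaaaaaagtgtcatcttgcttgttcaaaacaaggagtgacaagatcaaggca
Ikzf4, chr10:128637013-128637212: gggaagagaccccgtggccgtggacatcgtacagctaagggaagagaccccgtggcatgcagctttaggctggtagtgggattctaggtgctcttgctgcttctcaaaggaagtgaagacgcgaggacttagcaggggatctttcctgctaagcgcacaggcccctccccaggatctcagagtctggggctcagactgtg
Ikzf2 intron, Th9 only, chr1:69554284-69554483: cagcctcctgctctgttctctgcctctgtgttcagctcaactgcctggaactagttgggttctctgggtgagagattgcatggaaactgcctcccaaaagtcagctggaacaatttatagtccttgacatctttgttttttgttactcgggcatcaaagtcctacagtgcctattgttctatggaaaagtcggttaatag
Ikzf3, Th9 and Th2, chr11:98477317-98477516: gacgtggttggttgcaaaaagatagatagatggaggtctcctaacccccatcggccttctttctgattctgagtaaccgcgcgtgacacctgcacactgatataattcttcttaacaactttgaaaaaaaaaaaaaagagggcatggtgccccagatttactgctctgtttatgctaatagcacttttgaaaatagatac
Ikzf4 upstream, Th9 and Th2, chr10:128663551-128663750: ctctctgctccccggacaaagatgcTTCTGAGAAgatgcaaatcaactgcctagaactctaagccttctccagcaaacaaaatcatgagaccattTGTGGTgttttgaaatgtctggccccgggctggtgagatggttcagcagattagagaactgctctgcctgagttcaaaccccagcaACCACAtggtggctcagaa

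The Ikzf1 window with the greatest difference held a TTCCCAGAA, in which the Ikaros-type word (on the minus strand) and the STAT word overlap. The Ikzf4 window called in Th9 and Th2 held a STAT word and 2 RUNX words. The Ikzf3 window past the test held a GATA word, and none of the 6 words occurred in the Ikzf4 window past the test, in the Th9-only window or in the Ikzf3 window called in Th9 and Th2. In the 200-base windows of the 95 regions, the Ikaros-type word was found in 15.8% against 15.1% of all regions, GATA in 6.3% against 7.8%, AP-1 in 14.7% against 8.7%, STAT in 7.4% against 5.6%, ROR in 14.7% against 11.7% and RUNX in 17.9% against 16.3%. These are matches of letters only, and no binding was measured at them.

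Promoters were set apart first. A promoter was the stretch from 1000 bp before to 100 bp after any annotated start of a gene. All 5 members had a promoter peak in all 6 libraries, as had 58.7% of protein-coding genes. None of the 5 promoter regions passed the test between any pair of subsets. Of all regions tested, 1.01% to 5.04% passed in a given direction. By mean percentile the promoters ran from Ikzf3 as the weakest to Ikzf5 as the strongest.

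Ikzf5, for the broadly expressed Pegasus, had the strongest promoter peak, at percentiles of 97.3 and 94.9 (Th9), 97.1 and 96.6 (Th2) and 97.9 and 96.0 (Th17), here and throughout in the order replicate 1, replicate 3. The region also holds the starts of Acadsb, a gene of branched-chain amino acid breakdown that runs the other way. Its peak therefore cannot be assigned to Ikzf5 alone. The promoter regions of Ikzf1 and Ikzf4 likewise hold a start on the other strand, of the processed transcript Gm11999 and the lincRNA Gm26876. Ikzf4, for Eos, lay at 97.2 and 96.2 (Th9), 94.9 and 92.2 (Th2) and 92.0 and 92.9 (Th17). The Th9 values lay above the other 4, and the log2 difference in fold enrichment was 0.44 ± 0.17 (SE) from Th2 (adjusted p = 0.188, limma) and 0.48 ± 0.17 from Th17 (adjusted p = 0.123, limma), which did not pass.

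Ikzf2, for Helios, lay at 93.8 and 93.3 (Th9), 94.1 and 87.8 (Th2) and 92.2 and 85.8 (Th17), with ranges that overlapped. Ikzf1, for Ikaros, lay at 85.9 and 83.3 (Th9), 82.1 and 83.2 (Th2) and 77.3 and 83.6 (Th17), also overlapping. Ikzf3, for Aiolos, had the weakest promoter peak, at 88.2 and 77.9 (Th9), 76.8 and 67.7 (Th2) and 77.8 and 72.2 (Th17). Both Th9 values of Ikzf3 lay above the other 4, though the lower of them by a margin far smaller than the gap between the Th9 libraries, and the difference of Th9 from Th2 was 0.47 ± 0.19 (log2, SE, adjusted p = 0.195, limma).

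The mean over the 6 libraries was 96.6 for Ikzf5, 94.2 for Ikzf4, 91.2 for Ikzf2, 82.6 for Ikzf1 and 76.8 for Ikzf3. Over all genes with a promoter peak in all 6 libraries the median of such means was 93.1, and 20.5% of those genes lay below Ikzf1 and 14.7% below Ikzf3. In that order the 6-library ranges of neighbours overlapped between Ikzf5 and Ikzf4, between Ikzf4 and Ikzf2, between Ikzf2 and Ikzf1 only narrowly (85.8 against 85.9), and between Ikzf1 and Ikzf3. When only peaks with a fold enrichment of at least 4 were kept, Ikzf2, Ikzf4 and Ikzf5 were still called in 6 libraries, Ikzf1 in 3 and Ikzf3 in 1. The share of all genes with such calls at that fold was not computed. This order and these calls rest on starts in the GENCODE basic set. A second Ikzf1 promoter, described below, is left out of them. The region over it lay at 89.0 to 95.7, with folds of 5.34 to 8.40, so the low place of Ikzf1 holds for its GENCODE starts only.

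**Figure D1:**
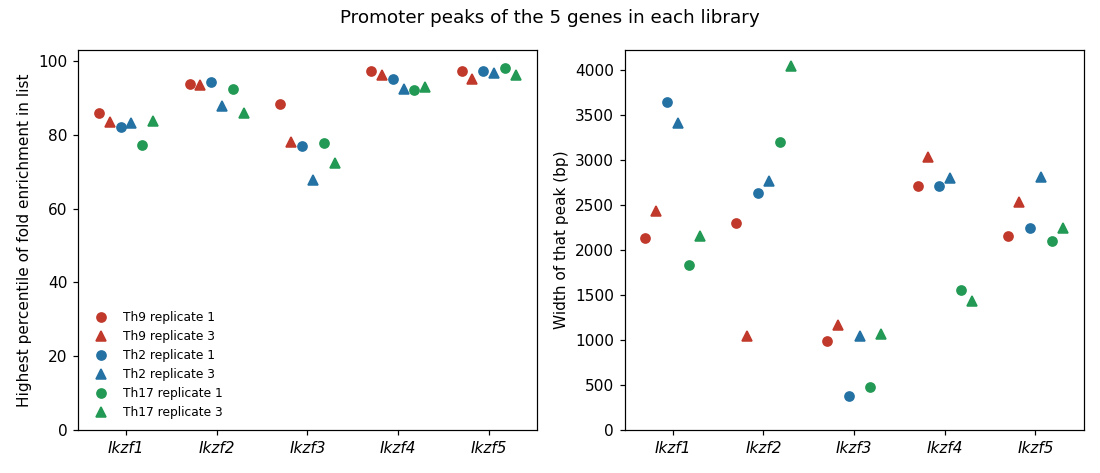
Left, the highest within-list percentile among promoter peaks of each gene in each library; right, the width in bp of that same peak. Circles are replicate 1 and triangles replicate 3, coloured by subset, with no error bars since each point is 1 library. Ikzf4 and Ikzf5 sit above 90 in every library, Ikzf3 reaches down to 67.7, and the Ikzf4 peak is narrower in the 2 Th17 libraries than in the other 4.

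The width of the strongest promoter peak separated 1 subset from the others at 3 promoters, Ikzf4, Ikzf1 and Ikzf2, in differing orders. The strongest Ikzf4 promoter peak was 2711 and 3032 bp wide in Th9 and 2709 and 2805 bp in Th2, against 1559 and 1435 bp in Th17. Among genes with a promoter peak in all 6 libraries, 13.0% had this same order, with both Th17 peaks the narrowest. The Ikzf1 promoter peak was 3643 and 3415 bp wide in Th2, 2132 and 2434 bp in Th9 and 1840 and 2159 bp in Th17. Widest peaks in both Th2 libraries were found at 26.7% of those genes, so the order at Ikzf1 was common in these lists. At Ikzf2 the strongest peak had the opposite order to that at Ikzf4. It was widest in Th17 (3197 and 4043 bp), against 2639 and 2768 bp in Th2 and 2302 and 1042 bp in Th9. Both Th17 peaks were the widest at 2.93% of those genes. Th17 replicate 3 had 1 promoter peak at Ikzf2, which overlapped both peaks of other libraries, and the other libraries had 2 each. With all peaks of the Ikzf2 promoter region added up, the order changed. Th2 then covered the most (4575 and 4490 bp), against 3474 and 4043 bp in Th17 and 3480 and 2287 bp in Th9. At Ikzf3 (386 to 1168 bp) and Ikzf5 (2101 to 2814 bp) no subset lay wholly above or below the other 4 libraries.

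Ikzf1 has a second promoter in RefSeq that lies inside the gene, and a separate region covered it. This region, chr11:11689021-11691134, centred 3632 bp downstream of the nearest start in the GENCODE basic set, was called in all 6 libraries at 95.7, 89.0, 94.3, 90.9, 90.9 and 90.8 (Th9, Th2, then Th17). In each library it ranked above the peak at the GENCODE starts. The RefSeq promoters of Ikzf1 at both places, and that of Ikzf5, are given 5′ to 3′ in the direction of the gene, with matches to the same words in capitals.
Ikzf1 upstream start, chr11:11685675-11685974, plus strand: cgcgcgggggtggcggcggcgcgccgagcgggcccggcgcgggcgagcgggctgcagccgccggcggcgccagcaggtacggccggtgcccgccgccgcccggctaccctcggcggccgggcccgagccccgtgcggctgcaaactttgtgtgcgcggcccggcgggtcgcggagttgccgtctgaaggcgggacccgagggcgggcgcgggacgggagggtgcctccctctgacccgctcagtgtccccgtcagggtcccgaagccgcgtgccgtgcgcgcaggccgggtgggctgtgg
Ikzf1 internal start, chr11:11689927-11690226, plus strand: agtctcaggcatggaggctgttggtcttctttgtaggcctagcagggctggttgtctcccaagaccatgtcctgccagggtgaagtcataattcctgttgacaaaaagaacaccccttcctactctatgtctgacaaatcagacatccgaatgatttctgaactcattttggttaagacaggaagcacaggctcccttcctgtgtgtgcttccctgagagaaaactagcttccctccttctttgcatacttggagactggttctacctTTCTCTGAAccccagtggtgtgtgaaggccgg
Ikzf5, chr7:131410429-131410728, minus strand: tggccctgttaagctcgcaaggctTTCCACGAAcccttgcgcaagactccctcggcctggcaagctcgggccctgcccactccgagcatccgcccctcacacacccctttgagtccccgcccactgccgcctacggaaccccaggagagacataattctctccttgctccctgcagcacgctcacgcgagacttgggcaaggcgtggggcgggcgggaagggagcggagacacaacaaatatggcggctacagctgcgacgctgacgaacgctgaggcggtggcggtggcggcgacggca

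The upstream Ikzf1 promoter held 81.3% G and C and none of the 6 words, whereas the internal one held 49.0% and a STAT word. That of Ikzf5 held 65.7% and a STAT word, which occurs in 8.3% of the RefSeq promoters of this length. Ikzf2, Ikzf3 and Ikzf4 had no entry in the promoter table used.

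Away from the promoters, calling was less uniform. All 5 member promoter regions and all 10 regions over a promoter of a neighbouring gene were called in all 6 libraries. The same held for 10 of 31 regions in member introns (32.3%), 4 of 10 overlapping a member exon, 3 of 16 in the body of a neighbour and 8 of 23 in intergenic DNA. A neighbour promoter without any peak forms no region and is not counted. Shares of these classes over all regions were not computed. Classes follow the GENCODE starts, so the 10 intronic regions include the one over the RefSeq promoter inside Ikzf1. Over the 5 windows, every library called 40 of the 95 regions, where 21.4% of the regions genome-wide were so called. Those 40 regions had a median width of 1822 bp and a median highest percentile of 91.0, against 1425 bp and 84.7 for all such regions. A further 27 regions (28.4%) came from a single library, with a median width of 242 bp. Single-library regions made up 37.2% of all regions.

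Few regions followed the subsets exactly. Both libraries of 1 subset and no other called 1 of the 95 regions for Th9, 4 for Th2 and 1 for Th17, where 1.31%, 2.87% and 1.70% of all regions had those patterns. Th9 and Th2 together, without Th17, shared 5 regions, where 2.0% of all regions had that pattern. Th2 and Th17 shared 2, where 1.55% of all regions did, and Th9 and Th17 shared 0, where 0.296% did. These counts are small, and several change when a library is left out, since a subset is then represented by 1 list. Th9-only regions numbered 9 without Th9 replicate 1, 4 without Th9 replicate 3 and 2 without Th2 replicate 3. Th2-only regions numbered 14 without Th2 replicate 1. Th17-only regions numbered 6 without Th17 replicate 3 and 3 without Th2 replicate 3.

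**Figure D2:**
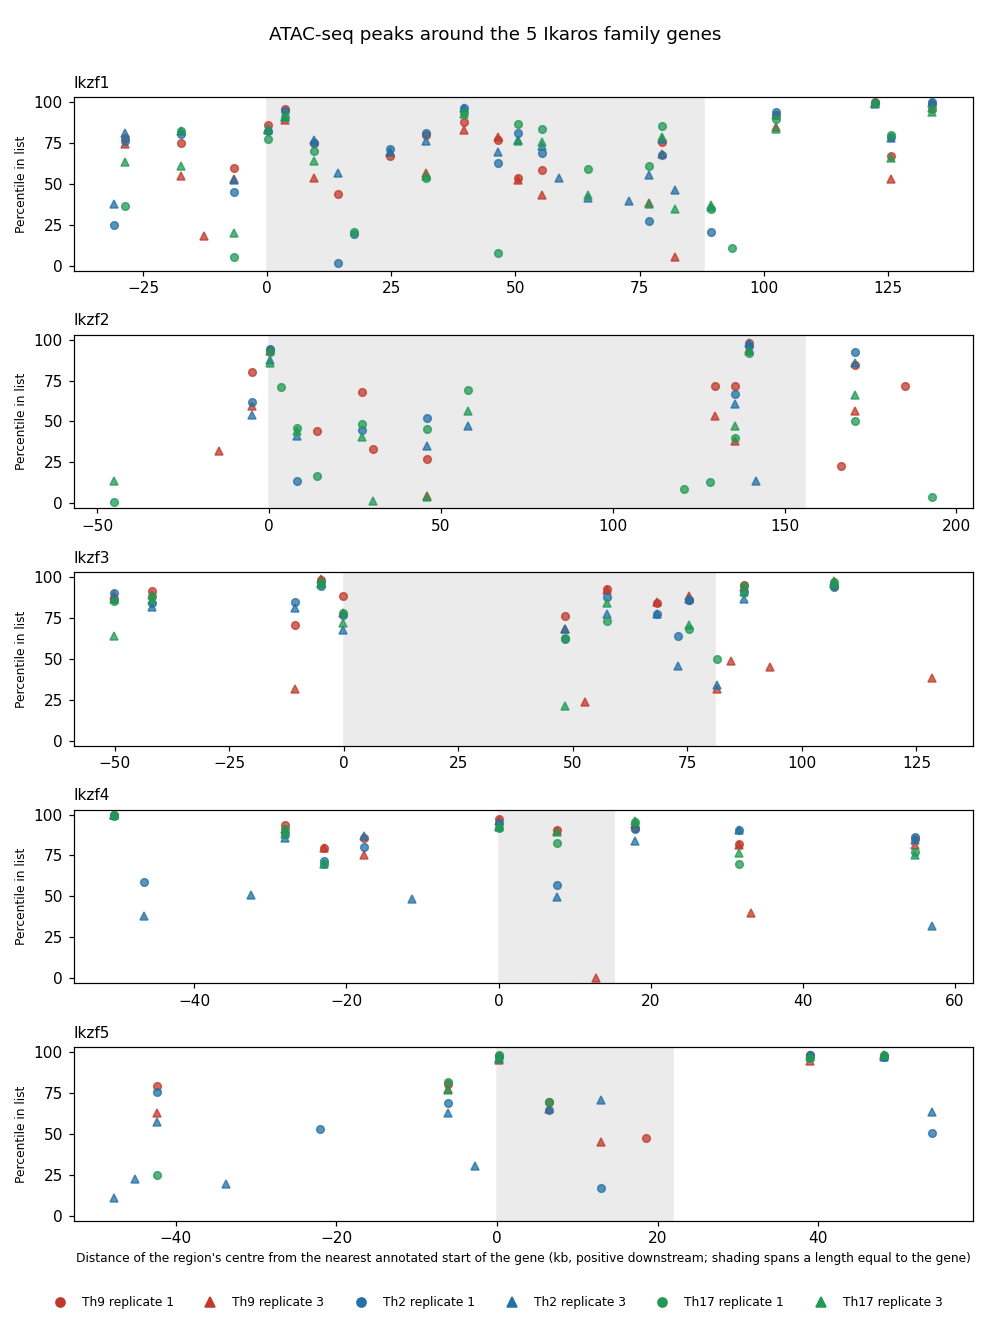
Within-list percentile (vertical axis, 0 to 100) of every region in the 5 windows against its distance in kb from the nearest start of the gene, 1 panel per gene. Each point is 1 library calling that region, coloured by subset, and grey shading spans a length equal to the gene. Ikzf1 has 28 regions spread through the gene, while Ikzf5 has 14, of which 2 lie in its introns.

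The 5 regions called in Th9 and Th2 but not in Th17 lay at 4 of the 5 genes. The strongest 2 were at Ikzf3 and Ikzf4. At Ikzf3, chr11:98476895-98478009 covers a 117-bp internal exon and the intron around it, 68348 bp downstream of the start, and was called at 84.1 and 84.8 in Th9 and at 77.4 and 77.6 in Th2. At Ikzf4, the intergenic region chr10:128662965-128664335, centred at -17659 bp from the nearest start (upstream), was called at 85.5 and 75.5 in Th9 and 80.3 and 86.8 in Th2. Both kept all 4 calls when peaks were limited to those with −log10 q at or above 5 (the stricter q).

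A second Ikzf3 region of this kind, chr11:98556081-98556911, is centred at -10696 bp from the start, in the body of Zpbp2, a gene of sperm development, at 70.7 and 31.5 in Th9 and 85.0 and 80.8 in Th2. It was held by the Th2 libraries alone at the stricter q. In Ikzf1, the intronic region chr11:11710067-11712188 (24682 bp downstream) lay at 67.3 and 69.3 in Th9 and 71.2 and 69.7 in Th2, close to each other in all 4. The strongest peaks of the 4 libraries had no base in common there, and both Th9 libraries lacked a peak in the middle of the region, where the Th2 peaks ran through. Near Ikzf2, chr1:69692031-69692626, centred at -5084 bp, lay at 80.2 and 59.4 in Th9 and 61.7 and 53.8 in Th2. At the stricter q, 3 of 4 calls were held at each of these last 2 regions.

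The only Th9-only region was in an intron of Ikzf2, at chr1:69554142-69554659, 129756 bp downstream of the start, with percentiles of 71.8 and 53.4. At the stricter q no library called it. The single Th17-only region lay upstream of Ikzf2 at chr1:69731503-69732994, centred at -45004 bp, and was among the weakest peaks of its lists, at 0.7 and 13.7. The 4 Th2-only regions were spread over Ikzf1 (24.7 and 37.6), Ikzf3 (64.2 and 45.5), Ikzf4 (59.1 and 37.8) and Ikzf5 (50.3 and 63.4). Of their 8 calls, 1 remained at the stricter q, that of Th2 replicate 3 near Ikzf5. The Ikzf3 region, chr11:98472789-98473031, was intronic, the Ikzf1 region chr11:11655019-11655294 was centred at -30768 bp, and the others lay in the bodies of Rab5b (chr10:128692512-128692828) and of 2310057M21Rik and Fgfr2 (chr7:131355798-131356855). The 2 regions shared by Th2 and Th17 were also weak. That at chr11:11774273-11777465, past the 3′ end of Ikzf1, lay at 20.9 to 37.0 with no base common to the strongest peaks of its 4 libraries, and that in an Ikzf2 intron at chr1:69675925-69676400 at 13.7 to 46.0. Neither was called at the stricter q. Both are absent from Th9 replicate 1, whose lowest fold called was the highest of the 6, and from Th9 replicate 3.

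The amount of each gene covered by peaks differed widely between members. Peaks covered 14.3% and 24.7% of the Ikzf1 body in the Th9 libraries, 29.9% and 40.5% of it in Th2 and 14.6% and 21% in Th17. For Ikzf2, the longest member at 156032 bp, the share was between 2.51% and 4.73% in all 6 libraries. Per 100 kb of window, Ikzf1 had 14.9 regions and Ikzf2 8.2, against a median of 9.34 over protein-coding genes (quartiles 6.36 and 12.8). Ikzf3, Ikzf4 and Ikzf5 had 9.39, 13 and 11.5.

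Both Th2 libraries covered more of Ikzf1 than the other 4 did, with 26274 and 35584 bp against 12614 to 21676 bp. That order was seen for 26.6% of genes with peaks in all 6 libraries, and the Th2 peaks covered 118 and 108 Mb in all against 80.7 to 102 Mb elsewhere. At Ikzf3, Ikzf4 and Ikzf5 both Th17 libraries covered less than the other 4, as for 19.0% of genes. The Ikzf3 body was covered over 1953 and 1554 bp in Th17, 3093 and 4263 bp in Th9 and 3971 and 5232 bp in Th2. The Ikzf4 body was covered over 1397 and 1620 bp in Th17, against 2388 and 2807 bp in Th9 and 1927 and 2591 bp in Th2. For Ikzf5 the Th17 values were 1284 and 1185 bp and the others ran from 1611 to 2375 bp.

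**Figure D3:**
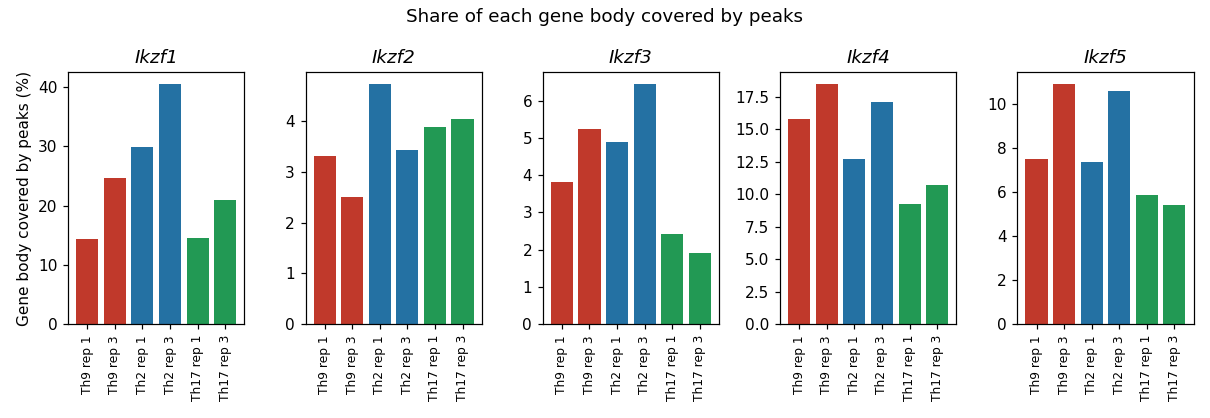
Percent of each gene body covered by peaks, 1 bar per library, with a separate vertical scale from 0 for each gene. The Th2 bars are the highest at Ikzf1 (29.9% and 40.5%), and the Th17 bars are the lowest at Ikzf3, Ikzf4 and Ikzf5.

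For regions called in all 6 libraries, fold enrichment was compared between subsets with limma on quantile-normalised log2 values, over 50493 regions with Benjamini-Hochberg adjustment. Regions missing from any list have no value and were not tested, so a region not called in 1 subset is outside this test. Of the 40 window regions tested, 2 differed in the comparison of Th9 with Th2, 4 in that of Th9 with Th17 and 5 in that of Th2 with Th17. These 11 calls fell on 9 regions, none of them a member promoter and none at Ikzf5. Th9 was higher than Th2 at 1 region and lower at 1, where 1.01% of all regions tested were higher and 2.18% lower. It was higher than Th17 at 1 and lower at 3, against 3.11% and 2.90% of all regions. Th2 was higher than Th17 at 3 and lower at 2, against 5.04% and 2.40%. The 3 comparisons share libraries and are given side by side. When within-list percentiles were tested in place of normalised folds, 0 of the 40 regions passed in any of the 3 comparisons (limma), with 9, 11 and 10 at an unadjusted p under 0.05 where 10.2%, 11.9% and 12% of all regions were, and no direction reversed. At each of the 9 regions the strongest peaks of the 6 libraries had bases in common.

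The Ikzf4 gene held the largest difference inside a member. The region chr10:128636486-128637474 covers a 150-bp internal exon and the introns beside it, 7668 bp downstream of the nearest start. Its percentiles were 90.5 and 89.9 in Th9 and 82.5 and 89.6 in Th17, but 56.9 and 49.7 in Th2. The Th2 libraries were both low, without overlap. Normalised fold enrichment was 5.16 and 6.04 (Th9), 2.29 and 2.39 (Th2) and 3.82 and 5.93 (Th17), so that Th9 exceeded Th2 by 1.26 ± 0.22 (log2, SE, adjusted p = 0.00694, limma) and Th2 lay below Th17 by a log2 difference of -1.03 ± 0.22 (adjusted p = 0.00731, limma). The first call was lost without Th9 replicate 3 (1.13) and the second without Th17 replicate 3 (-0.73). On within-list percentiles neither passed (adjusted p = 0.29 and 0.0688, limma), and at the stricter q the region was not among those tested.

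Ikzf1 held 3 regions in which Th9 was lower than Th17 by the test, and at 1 of them it was also lower than Th2. The intronic region chr11:11723969-11728389, 39734 bp downstream of the nearest start, lay at 87.9 and 83.0 (Th9), 96.1 and 96.4 (Th2) and 93.1 and 92.6 (Th17). Its normalised fold was 4.49 and 4.48 (Th9), 8.14 and 8.96 (Th2) and 6.51 and 7.10 (Th17). Th9 was thus 1.91-fold lower than Th2 (log2 difference -0.93 ± 0.17, SE, adjusted p = 0.00979, limma) and 1.52-fold lower than Th17 (-0.60 ± 0.17, adjusted p = 0.0471, limma). The difference from Th2 was past the threshold in all runs that left out a library but the one without Th9 replicate 3 (-0.88, adjusted p = 0.0564, limma). That from Th17 was lost without any 1 of the 4 Th9 and Th17 libraries, with adjusted p from 0.123 to 0.328 (limma) and log2 differences from -0.66 to -0.54.

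Further into the gene, the intronic region chr11:11735967-11737960 lay at 53.4 and 52.5 (Th9), 81.1 and 77.0 (Th2) and 86.4 and 76.3 (Th17). Both Th9 values were far below the other 4, and the log2 difference of Th9 from Th17 was -0.75 ± 0.19 (SE, adjusted p = 0.0285, limma), while that from Th2 did not pass (-0.55 ± 0.19, adjusted p = 0.131, limma). The next region, chr11:11740430-11743009, holds a 60-bp exon that only the wide peak of Th17 replicate 3 overlapped. In the other libraries the strongest peaks, whose folds were compared, began past this exon. The region lay at 58.8 and 43.2 (Th9), 69.1 and 73.0 (Th2) and 83.5 and 75.8 (Th17). The log2 difference of Th9 from Th17 was -0.69 ± 0.18 (SE, adjusted p = 0.0329, limma). Its 3 subsets did not overlap, but the difference from Th2 did not pass (-0.33 ± 0.18, adjusted p = 0.367, limma). Both calls were lost without any 1 of the Th9 and Th17 libraries, with adjusted p between 0.0572 and 0.249 (limma) and differences between -0.91 and -0.60. The second of them also lost its call with a width-weighted mean fold (-0.50, adjusted p = 0.114, limma).

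**Figure D4:**
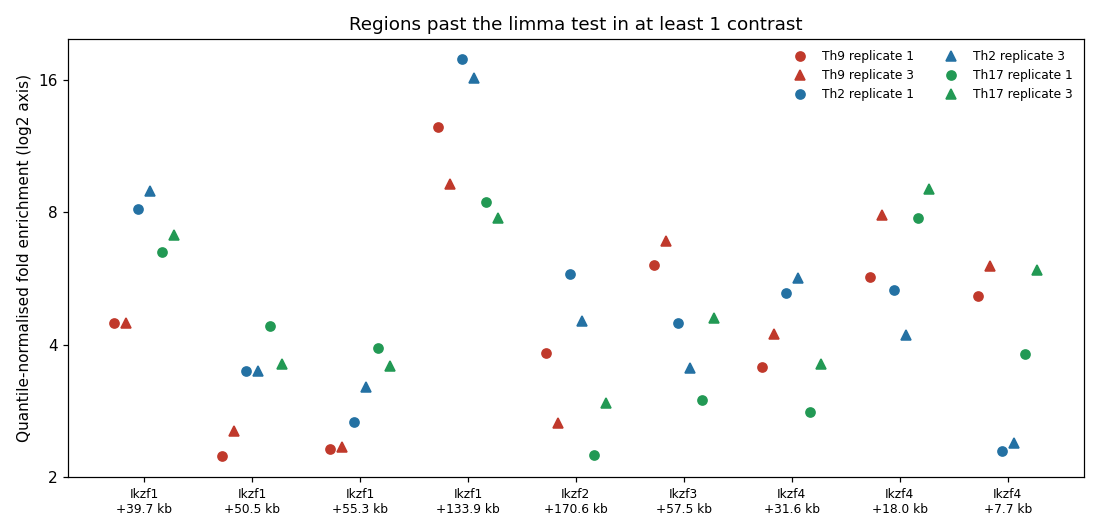
Quantile-normalised fold enrichment (log2 axis) in each library for the 9 regions past the limma test in at least 1 comparison, named by gene and distance from its nearest start. Circles are replicate 1 and triangles replicate 3. Th9 is low at the first 3 Ikzf1 regions, and Th2 is low at the Ikzf4 region inside the gene.

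Ikzf3 had 1 region past the test, in which Th9 was higher than Th17. It lies at chr11:98487347-98489216, 57518 bp downstream of the start, and includes a 168-bp internal exon. The strongest peaks, whose folds were compared, lay outside this exon in every library but Th2 replicate 3. Neither Th17 library had a peak over the exon, and the Th9 libraries had separate weaker peaks there (percentiles 18.9 and 37.8). Percentiles were 92.9 and 92.2 (Th9), 87.8 and 77.7 (Th2) and 73.0 and 84.0 (Th17). Th9 exceeded Th17 by 0.81 ± 0.22 (log2, SE, adjusted p = 0.0375, limma), with normalised folds of 6.08 and 6.90 against 2.99 and 4.59, and the difference from Th2 did not pass (0.70 ± 0.22, adjusted p = 0.0933, limma). The call was lost without Th9 replicate 1 (0.90, adjusted p = 0.0878), without Th9 replicate 3 (0.69, 0.184), without Th17 replicate 1 (0.49, 0.392), with a width-weighted mean fold (0.53, 0.188) and at the stricter q (0.80, 0.0518), all from limma. Without Th17 replicate 1 the difference was also over 1.5 times smaller. The 2 Ikzf3 regions not called in Th17 had no value there and were not tested.

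The remaining 4 regions past the test lay outside the member genes, and for each the difference was between Th2 and Th17. The strongest, chr11:11819462-11821286, lies 133929 bp downstream of the Ikzf1 start in the body of Ddc, which encodes an enzyme that makes dopamine and serotonin. It lay at 99.8 and 99.7 (Th2), 99.1 and 96.2 (Th9) and 96.0 and 93.9 (Th17), with a normalised fold of 17.90 and 16.20 in Th2 against 8.43 and 7.77 in Th17. The log2 difference was 1.07 ± 0.18 (SE, adjusted p = 0.00145, limma), and this was the 1 call of the 11 that was past the threshold in all 6 runs that left out a library.

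Downstream of Ikzf2, the intergenic region chr1:69512987-69514146 lay at 92.2 and 85.6 (Th2), 84.3 and 56.1 (Th9) and 50.3 and 66.3 (Th17), and Th2 exceeded Th17 by 0.99 ± 0.23 (log2, SE, adjusted p = 0.0118, limma). This call was lost without Th2 replicate 1 (0.82, adjusted p = 0.0738), Th17 replicate 1 (0.80, 0.178) or Th17 replicate 3 (1.22, 0.0509), all from limma. The Ikzf2 region was not among those tested at the stricter q. Around Ikzf4, the intergenic region chr10:128612588-128613524 lay at 90.7 and 90.3 (Th2), 82.1 and 81.3 (Th9) and 69.6 and 76.4 (Th17). The 3 subsets did not overlap there, and Th2 exceeded Th17 by 0.77 ± 0.20 (log2, SE, adjusted p = 0.0235, limma). At the promoter of Rps26, a ribosomal protein gene (chr10:128625319-128627971), the order was turned round, with 95.2 and 95.9 in Th17, 92.0 and 94.2 in Th9 and 90.9 and 83.6 in Th2 and a log2 difference of Th2 from Th17 of -0.82 ± 0.20 (SE, adjusted p = 0.017, limma). The call at the first of these Ikzf4 regions was lost without any 1 of the Th2 and Th17 libraries (0.59 to 0.97, adjusted p from 0.0531 to 0.259, limma), and that at Rps26 without Th2 replicate 3 (-0.67, 0.11), Th17 replicate 1 (-0.93, 0.0726) or Th17 replicate 3 (-0.71, 0.231), from limma.

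Over the 40 regions the median log2 difference was 0.05 for Th9 minus Th2, 0.17 for Th9 minus Th17 and 0.09 for Th2 minus Th17, against 0.02, -0.00 and -0.03 over all regions tested. The 13 NuRD subunit genes, whose products work with Ikaros, and 5 other partner genes (Sin3a, Sin3b, Ctbp1, Ctbp2 and Smarca4) all had promoter peaks in all 6 libraries. Promoter peaks in all 6 libraries were found at 58.7% of protein-coding genes. None of the 18 promoters passed the test in any comparison (limma), where 1.01% to 5.04% of all regions tested passed in a given direction. At an unadjusted p under 0.05 there were 4 NuRD genes and 2 other partners for Th9 against Th2, 1 and 0 for Th9 against Th17, and 1 and 1 for Th2 against Th17, where 17.9%, 19.0% and 19.1% of all regions tested were under it. Gatad2a, a NuRD subunit, was among the strongest, at 99.4 to 99.9, as was Smarca4, the ATPase of SWI/SNF complexes, at 98.1 to 99.8. Chd4, the NuRD ATPase, lay at 80.8 to 89.6, near the range of Ikzf1 itself at its GENCODE starts. Its paralogue Chd3 had the widest range of the 18, from 40.6 in Th17 replicate 1 to 89.6 in Th9 replicate 3, and Ctbp2 ran from 53.5 to 85.1.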

How the data were processed

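The 6 libraries were mapped to Th9, Th2 and Th17 by their titles. Per the labels and methods, the authors trimmed reads with Trim Galore 0.4.3, aligned them to mm10 with Bowtie2, removed duplicates with Picard and called peaks in each library with MACS2 2.1.0 (paired fragments, broad, no local background), and the cutoff was not given in the sources used here. The lists the authors deposited hold a display score, left aside here, the fold enrichment, which is a linear ratio over a genome-wide background, and the −log10 of p and q. No read counts or depths are held, so precision rests on 2 libraries per subset. Per the methods, mitochondrial reads and reads of low mapping quality had been excluded. As every position is set against 1 background, repeated DNA whose reads pass that filter can give peaks.

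Peaks overlapping or touching across lists were joined (Python 3.11.15, pandas 2.3.3), and a library called a region with at least 1 bp of overlap. A wide peak can thus join separate peaks of other libraries, and in 5 of the 68 window regions called in more than 1 library the strongest peaks had no base in common. The value of a region was its highest fold. For the 50493 regions called in all 6 libraries, log2 fold was quantile-normalised and fitted with limma 3.58.1 (R 4.3.3) with trend over all 6 libraries, Benjamini-Hochberg adjusted, with a threshold of 0.05. The spread of each region was drawn towards a trend over all regions (3 residual and a median of 13.3 prior degrees of freedom). The SEs and p-values given come from this moderated spread, not from the region's own libraries alone. The code was tested on simulated data. Genes came from the GENCODE M21 basic set, and 0 peaks lay past a chromosome end of GRCm38.p6. Promoter sequences came from RefSeq on that assembly, in which 2 of the 5 members matched by symbol.

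Regions were named by rule: promoter regions of the members, regions called in both libraries of 1 or 2 subsets and no other, and regions past the limma threshold, the last 2 kinds up to 6 a gene. The members and gene lists were chosen with earlier results of these data known, and 1 marker gene of these lists is not reported here. Alternatives were peaks with −log10 q at or above 5 or with a fold of 4 or more, equal list lengths, at least 50% of a region covered, windows of 10 kb, the within-list percentile, a width-weighted fold, a replicate block, wider promoters (2000 bp on either side), a promoter overlap of at least 200 bp and each library left out.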

Additional observations from a re-analysis of the deposited data

How the results depend on the processing

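The 30 promoter calls of the 5 genes fell to 22 at a fold of at least 4 and were 30 with promoters of 2000 bp on either side or an overlap of at least 200 bp. The 95 window regions became 56 at a −log10 q of at least 5, 34 at a fold of at least 4 and 56 in windows of 10 kb, and those called in all 6 libraries went from 40 to 17 at that fold, 21 with at least 50% of a region covered and 24 in windows of 10 kb. Th9-only regions (1) were 0 at the stricter q and 1 to 9 with a library left out. Th2-only regions (4) were 2 at that q, 1 at the stricter fold, 1 in windows of 10 kb and 4 to 14 with a library left out. The 2 at that q and the 1 at that fold were not among the original 4, whose 8 calls fell to 1 and 0. Th17-only regions (1) were 0 at the stricter fold, with equal lists, with 50% covered and in windows of 10 kb, and 1 to 6 with a library left out. Leaving out a library of a subset loosens its pattern by construction.

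Window regions past the limma test numbered 2, 4 and 5 for Th9 minus Th2, Th9 minus Th17 and Th2 minus Th17. On within-list percentiles they were 0, 0 and 0, at the stricter q 1, 0 and 3 (fewer regions tested, 25150), with a width-weighted fold 2, 1 and 6, and with a library left out 0 to 3, 0 to 5 and 1 to 5. Leaving out a library leaves 1 in its subset, assumed to vary like the others. Over all regions the counts were 1611, 3034 and 3756, and 0, 122 and 382 on percentiles, where 113 of 122 and 367 of 382 were higher in the first subset against 1572 of 3034 and 2546 of 3756. With a library left out the lowest counts were 368, 718 and 964, and at the stricter q 1052, 1127 and 1798. The cause was not tested. No direction at the 9 regions reversed under any alternative run. With the replicate number as a block, 4, 5 and 5 window regions and 2205, 3506 and 4300 of all regions passed. Replicate 1 minus 3 differences correlated across regions at 0.207 (Th9 and Th2), 0.00984 (Th9 and Th17) and 0.000962 (Th2 and Th17). These values do not settle whether the replicate numbers mark pairs. The labels do not say so, and the numbers were therefore not treated as pairs in the main fit.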
